A study of Homo sapiens with 2 samples.

Results

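The mitochondrial ribosomal protein (MRP) genes were examined for Flag-ETV4 peaks in a ChIP-seq data set of A549 cells, an established human non-small cell lung cancer line. Members were all protein-coding RefSeq genes whose symbol is MRPL or MRPS followed by digits, which gave 77 of 20037 protein-coding genes, 49 with an MRPL symbol (large subunit) and 28 with an MRPS symbol (small subunit), on 21 chromosomes. A gene was counted as having a peak where a peak interval lay within 1 kb of either of its outer ends on GRCh38, and the peak with the highest fold enrichment among these was taken as the gene's highest peak. The cells were A549-shETV4, a line in which ETV4 was knocked down by shRNA, transfected with flag-ETV4, so the protein precipitated is the tagged, re-introduced one and its level is set by the transfection. There was 1 immunoprecipitate with an anti-Flag antibody and 1 Input library of the same cells, which carried no antibody and enters only as the control of the peak calls. Without a replicate, no SD and no test between genes or groups can be given, and a Flag control without ETV4 was not analysed here. The list held 54389 peaks whose fold enrichment over the Input had a median of 9.63. The summit of the median peak was covered by 26 fragments (the pileup). Exact Poisson 95% intervals are given for single pileups and cover counting error only.

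Mitochondrial ribosomes translate the few messenger RNAs of the mitochondrial genome, which encode core subunits of the respiratory chain and of ATP synthase. Their RNA is made in the mitochondrion, whereas all of their proteins are encoded in the nucleus, made in the cytosol and imported. The large subunit forms peptide bonds and holds the exit tunnel, and the small subunit decodes the message. ETV4 belongs to the PEA3 group of ETS transcription factors, whose DNA-binding domain reads a GGAA core, best with CCGGAAGT around it, a sequence known to be frequent in promoters of housekeeping genes.

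To show what the ETS sequences look like at these promoters, the bases just before the annotated start were read from RefSeq (GRCh38.p14) on the strand of the gene. Capitals mark each match of CCGGAA or of its reverse complement, TTCCGG. The first set holds members that carry such a match, 4 of them chosen from the highest folds and MRPL3, MRPL51 and MRPL47 because their summit lay within 7 bp of it. MRPS18A is at chr6:43687792-43687911 (minus strand), MRPL27 at chr17:50373185-50373228 (minus strand), MRPL33 at chr2:27771599-27771718 (plus strand), MRPL53 at chr2:74472681-74472800 (minus strand), MRPL3 at chr3:131502972-131503091 (minus strand), MRPL51 at chr12:6493263-6493382 (minus strand) and MRPL47 at chr3:179604647-179604766 (minus strand). The run of MRPL27 is shorter, 44 bases against 120, because the neighbouring gene EME1 begins there.
MRPS18A: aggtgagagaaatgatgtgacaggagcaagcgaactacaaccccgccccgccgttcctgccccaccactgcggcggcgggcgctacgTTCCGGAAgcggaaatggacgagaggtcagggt
MRPL27: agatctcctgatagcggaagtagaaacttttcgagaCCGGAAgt
MRPL33: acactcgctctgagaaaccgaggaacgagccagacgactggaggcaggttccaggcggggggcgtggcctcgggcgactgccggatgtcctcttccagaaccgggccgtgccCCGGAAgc
MRPL53: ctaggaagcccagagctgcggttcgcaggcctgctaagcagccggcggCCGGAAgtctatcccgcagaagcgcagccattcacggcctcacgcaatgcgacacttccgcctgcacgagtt
MRPL3: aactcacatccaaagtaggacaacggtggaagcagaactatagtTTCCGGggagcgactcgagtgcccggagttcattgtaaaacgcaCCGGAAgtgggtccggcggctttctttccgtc
MRPL51: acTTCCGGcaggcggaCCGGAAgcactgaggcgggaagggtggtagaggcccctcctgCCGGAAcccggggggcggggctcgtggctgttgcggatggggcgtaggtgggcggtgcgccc
MRPL47: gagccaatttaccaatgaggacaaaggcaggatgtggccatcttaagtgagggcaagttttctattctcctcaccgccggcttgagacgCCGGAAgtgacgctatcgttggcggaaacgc

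The second set shows the contrasts. MRPL18, at chr6:159789692-159789811 (plus strand), was among the 5 highest members and has no CCGGAA in its window. Its bases do hold acggaagt, which differs from CCGGAAGT in the first letter only. MRPS17, at chr7:55951757-55951876 (plus strand), was the lowest and has none either. MRPL44, at chr2:223957343-223957462 (plus strand), and MRPL46, at chr15:88467389-88467508 (minus strand), carry matches although neither had a peak within 1 kb of an outer end.
MRPL18: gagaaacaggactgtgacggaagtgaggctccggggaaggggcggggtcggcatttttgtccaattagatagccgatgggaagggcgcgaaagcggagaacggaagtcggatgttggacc
MRPS17: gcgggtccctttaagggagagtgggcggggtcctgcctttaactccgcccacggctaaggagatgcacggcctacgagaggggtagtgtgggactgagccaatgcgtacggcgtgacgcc
MRPL44: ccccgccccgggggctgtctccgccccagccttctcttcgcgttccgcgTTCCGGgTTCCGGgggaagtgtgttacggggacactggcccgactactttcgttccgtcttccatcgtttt
MRPL46: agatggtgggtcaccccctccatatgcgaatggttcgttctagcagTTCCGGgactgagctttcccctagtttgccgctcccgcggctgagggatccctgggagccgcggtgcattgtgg

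A peak lay within 1 kb of an end at 66 of the 77 MRP genes (85.7%), where the same rule called 62.1% of all protein-coding genes. With only peaks that reach no other protein-coding gene, the share was 41.6% against 45.2%, where genes with shared peaks only count as without a peak. At higher fold enrichment the MRP genes came closer to the background. Peaks with a fold over 10 were found at 44 of 77 (57.1%) against 45.2% of all protein-coding genes, and peaks with a fold over 20 at 22 of 77 (28.6%) against 27.6%. In height, the peaks of the MRP genes lay somewhat below those of other genes. The highest peaks of the 66 genes ranged from 3.5 to 77.7 in fold, with a median of 14.4 and quartiles of 6.84 and 24.3, whereas the median over all 12444 protein-coding genes with a peak was 17.6. Only 25 of the 66 (37.9%) lay above that value. The median pileup was 44 fragments against 54, and the median control level 2.68 against 2.03. Members' peaks were narrower, with a median width of 804 bp against 1062 bp. Each of the 66 genes had a highest peak of its own, since no member shared it with another member.

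**Figure D1:**
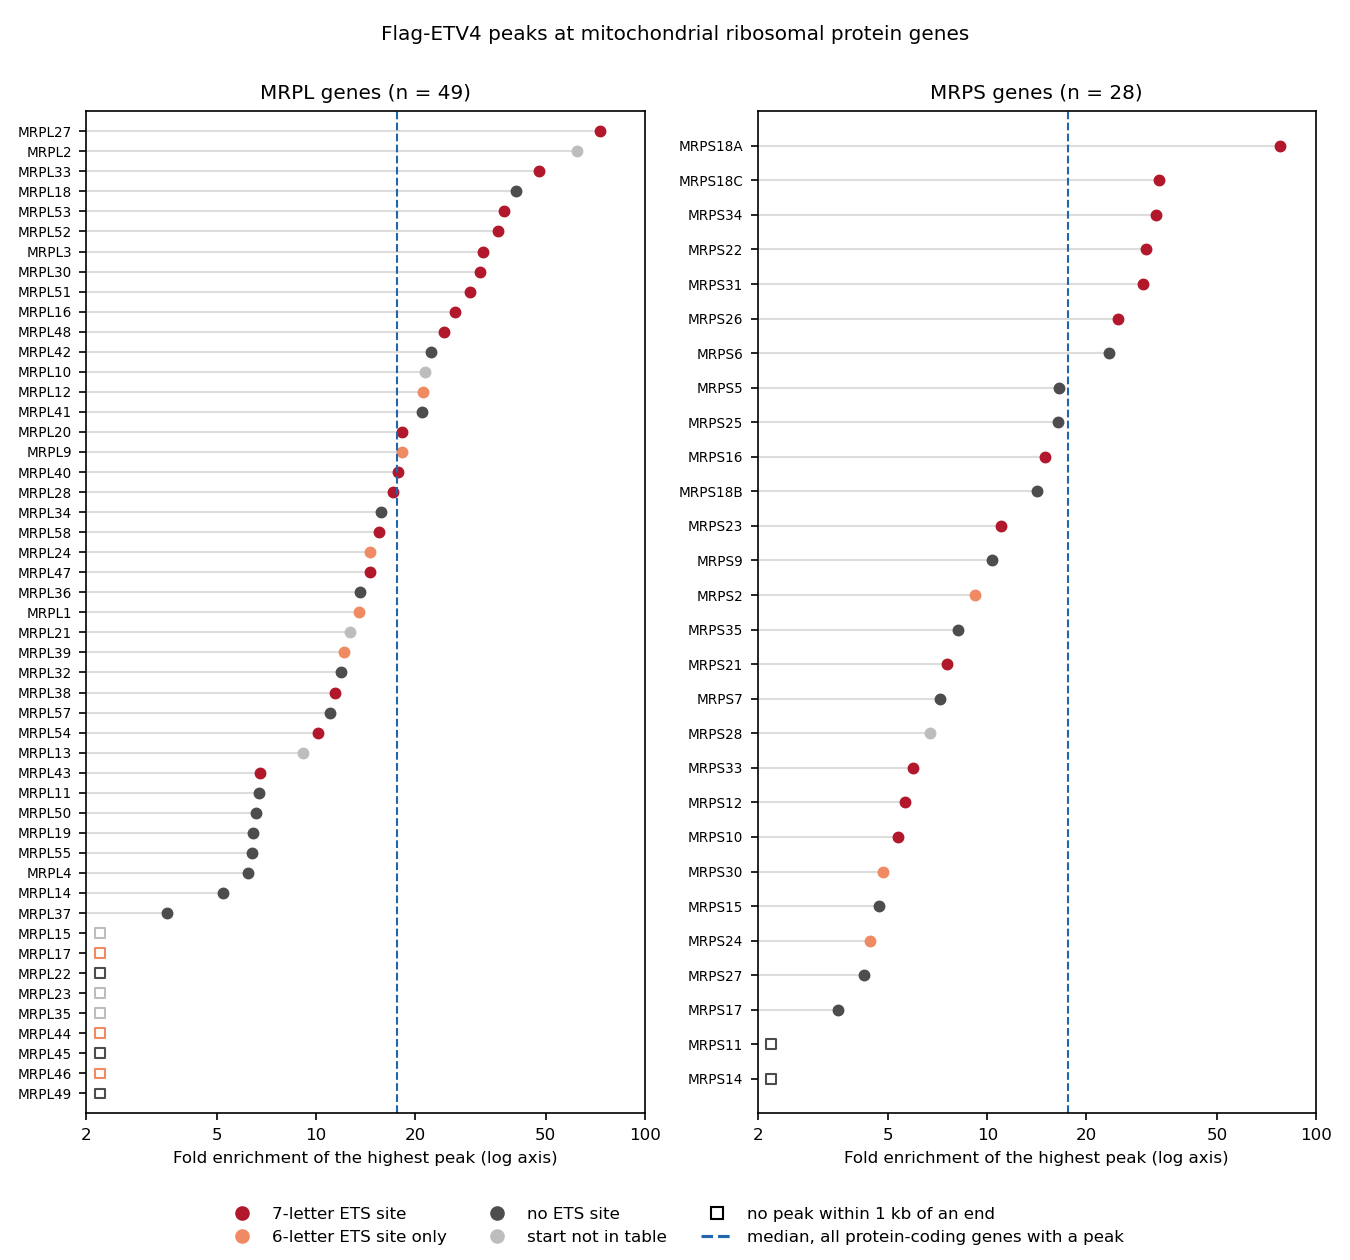
Fold enrichment of the highest Flag-ETV4 peak (log axis) at each of the 49 MRPL and 28 MRPS genes, ordered by value, with colour for the ETS site in the promoter window (7 letters, CCGGAAG; 6 letters, CCGGAA) and open squares, placed at the left edge, for genes without a peak. MRPS18A and MRPL27 lead at 77.7 and 73.1, and 25 genes lie to the right of the dashed median of 17.6. None of the open squares with a promoter window carries a 7-letter site. MRPL15, MRPL23 and MRPL35 had no window and were not searched.

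In the large subunit, 40 of 49 genes had a peak (81.6%). Of all 49, 31 (63.3%) exceeded a fold of 10 and 15 (30.6%) a fold of 20, against 45.2% and 27.6% of all protein-coding genes. MRPL27 (bL27m), whose bacterial counterpart reaches into the peptidyl transferase centre, had the highest peak, with a fold of 73.1 and 319 fragments (285 to 356) over a control level of 3.38, at chr17:50372825-50373567. Its summit lay 14 bp inside the gene, beside the CCGGAAgt shown above, and the same peak reached the end of EME1, a subunit of a structure-specific DNA endonuclease. MRPL2 (uL2m), a core protein of the catalytic region, came next with a fold of 62.2 and 292 fragments (259 to 327), at chr6:43053438-43054237. This peak lay at the lower end of the gene and also reached CUL7, a cullin of a ubiquitin ligase. The peak at the other end of MRPL2 had a fold of only 4.34 and 18 fragments (10.7 to 28.4). The strand of MRPL2 was not available, so which of these ends holds its start was not read. MRPL33 (bL33m) had a fold of 47.7 and 148 fragments (125 to 174), at chr2:27771443-27772252, 94 bp inside the start, and no other gene end was within reach.

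The remaining large-subunit genes among the 10 highest members were MRPL18, MRPL53, MRPL52 and MRPL3. MRPL18 (uL18m), part of the central protuberance, had a fold of 40.5 and 147 fragments (124 to 173), at chr6:159788681-159789927, with its summit 118 bp upstream in the gap that it shares with TCP1, a subunit of the cytosolic chaperonin. MRPL53 (mL53), found only in mitochondrial ribosomes, had a fold of 37.2 and 124 fragments (103 to 148), at chr2:74471932-74473038, in a gene so short that the peak covered both of its ends, and it reached CCDC142 as well. MRPL52 (mL52) had a fold of 35.8 and 89 fragments (71.5 to 109.5), at chr14:22833815-22834478, but at its 3′ end, 4332 bp downstream of the start. MRPL3 (uL3m), another protein close to the catalytic region, had a fold of 32.1 and 87 fragments (69.7 to 107), at chr3:131502615-131503807, 24 bp upstream of the start, where it also reached the non-coding LOC105374114. The lowest large-subunit peak was that of MRPL37 (mL37), with a fold of 3.51 and 12 fragments (6.20 to 21.0).

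Known ribosomal neighbourhoods were not uniform. MRPL10 and MRPL12, which form the stalk that recruits translation factors, had values of 21.5 and 21.2, and their neighbour MRPL11 had 6.69. The peaks of MRPL10 and MRPL12 also reached LRRC46 and HGS. MRPL4, MRPL22, MRPL23 and MRPL24 line the exit tunnel or its rim, and among them MRPL24 had a fold of 14.6, MRPL4 one of 6.19, and MRPL22 and MRPL23 had no peak. MRPL58, a peptidyl-tRNA hydrolase that became a ribosomal protein, had a fold of 15.5. MRPL39, MRPL44 and MRPL45, all specific to mitochondrial ribosomes, had a fold of 12.2 in the first and no peak at an outer end in the others.

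In the small subunit, 26 of 28 genes had a peak (92.9%), a larger share than in the large subunit, but the peaks were lower. Of all 28, 13 (46.4%) exceeded a fold of 10 and 7 (25%) a fold of 20, near the 45.2% and 27.6% of all protein-coding genes. The median fold was 9.72, with quartiles of 5.69 and 21.7, against 15.6, with quartiles of 10.8 and 25, for the large subunit, and the median pileup was 36.5 against 47.5 fragments. The ranges of single genes overlapped almost entirely, from 3.5 to 77.7 and from 3.51 to 73.1. The difference between the subunits was not tested, as the genes share 1 library and are not replicates.

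MRPS18A had the highest peak of all members, with a fold of 77.7 and 330 fragments (295 to 368) over a control level of 3.26, at chr6:43686651-43688184. Its summit lay 94 bp inside the gene, and the peak also reached the non-coding LOC124901320. The fold exceeded the highest peaks of 98.6% of the protein-coding genes with a peak. MRPS18A is 1 of 3 human homologues of bacterial S18, and its systematic name, mL66, places it in the large subunit despite its symbol. The other homologues were lower. MRPS18C (bS18m) had a fold of 33.4 and 134 fragments (112 to 159), at chr4:83455285-83456480, a peak that also reached the DNA helicase gene HELQ. Its summit lay 470 bp upstream of the start of MRPS18C, past the gap of 175 bp between the genes and 235 bp from the start of HELQ. MRPS18B (mS40) had a fold of 14.2 and 61 fragments (46.7 to 78.4). The pileup intervals of the 3 homologues did not overlap.

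Among the other small-subunit genes, MRPS34 (mS34) had a fold of 32.6 and 76 fragments (59.9 to 95.1), at chr16:1770461-1774392, in a peak 3932 bp wide that also reached EME2, MAPK8IP3 and NME3 and whose summit lay 2179 bp from the start of MRPS34. MRPS22 (mS22) followed with 30.5, MRPS31 (mS31) with 29.7 and MRPS26 (mS26) with 24.9, all proteins without a bacterial counterpart. MRPS12 (uS12m), part of the decoding centre, had a fold of 5.61. The lowest peaks of all members were mostly of this subunit. MRPS17 (uS17m) had a fold of 3.5 and 7 fragments (2.81 to 14.4), MRPS27 (mS27) 4.21 and 16 fragments (9.15 to 26), MRPS24 4.38 and 15 fragments (8.4 to 24.7), MRPS15 (uS15m) 4.67 and 21 fragments (13.0 to 32.1), and MRPS30 4.82 and 10 fragments (4.80 to 18.4). These intervals overlap, so at this depth the lowest members cannot be put in an order.

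Symbols and subunits do not match in full. The systematic names, which RefSeq lists for 75 of the 77 genes, place MRPS18A (mL66) and MRPS30 (mL65) in the large subunit. With these genes moved, 42 of 51 large-subunit genes (82.4%) and 24 of 26 small-subunit genes (92.3%) had a peak, and the medians of 15.6 and 9.72 did not move. The highest small-subunit peak was then that of MRPS18C, 33.4. Over all protein-coding genes the share with a peak was 62.1%. The names also give the origin of each protein. A peak was found at 21 of 26 genes (80.8%) with a universal name (shared by all ribosomes), at 16 of 18 (88.9%) with a bacterial name and at 27 of 31 (87.1%) with a mitochondrial name. Their median folds were 10.3, 16.4 and 15.5, with ranges of 3.5 to 62.2, 6.37 to 73.1 and 3.51 to 77.7.

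**Figure D2:**
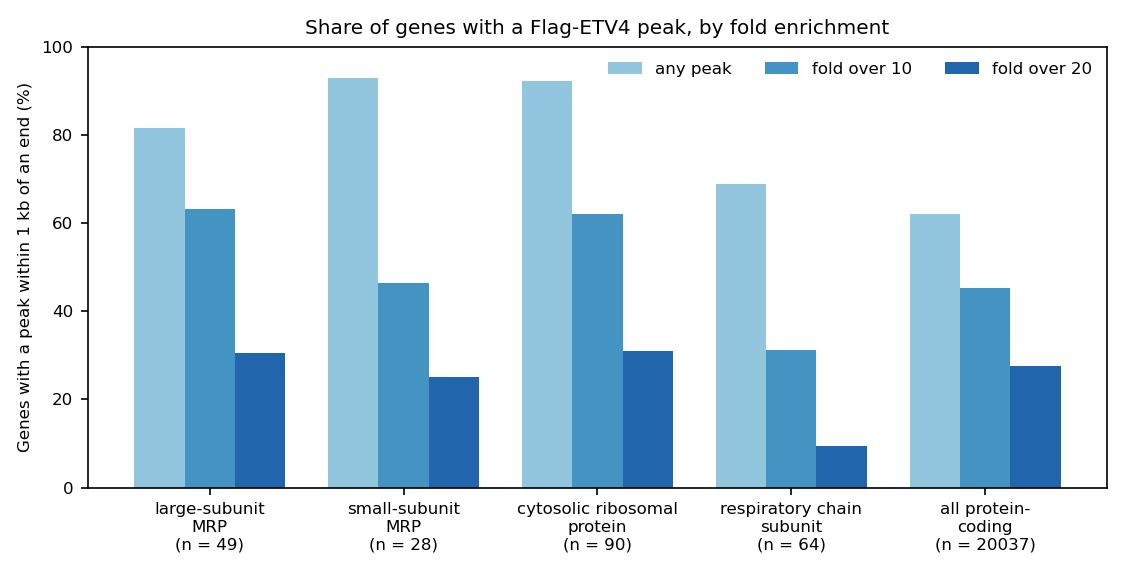
Percentage of genes with a Flag-ETV4 peak of any height, of a fold over 10 and of a fold over 20 within 1 kb of an end, for MRPL genes, MRPS genes, cytosolic ribosomal protein genes, respiratory chain subunit genes and all protein-coding genes. The small-subunit genes have the larger share with any peak (92.9% against 81.6%) and the smaller share over 10 (46.4% against 63.3%), and over 20 both subunits stand near the 27.6% of all protein-coding genes. All protein-coding genes have 62.1% with any peak and 45.2% over 10.

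More than 1 peak lay within 1 kb of an end at 13 members, 11 of the large subunit and 2 of the small. MRPL18 had the strongest second peak, with a fold of 29.5 and 109 fragments (89.5 to 131) centred 1111 bp downstream of its start, so that both of its 5′ peaks were above the median of all genes. MRPL52 had 3 peaks, and the one at its 5′ end was the weakest, with a fold of 3.37 and 7 fragments (2.81 to 14.4), below 35.8 and 16.2 at the 3′ end. Pairs of peaks at the 5′ end alone were present at MRPL9 (18.2 and 12.8), MRPL32 (11.9 and 4.59), MRPL54 (10.1 and 4.11) and MRPL58 (15.5 and 3.31). A second, lower peak at the 3′ end was present at MRPL20 (13.9 beside 18.2), MRPL34 (6 beside 15.8), MRPS6 (4.38 beside 23.5) and MRPS18B (4.65 beside 14.2). At MRPL4 the 3′ peak was the higher, with a fold of 6.19 against 5.01 and 24 fragments (15.4 to 35.7) against 12 (6.20 to 21.0), intervals that overlap. MRPL36 had 13.6 inside the gene and 8.74 at the outer 5′ end.

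The 11 members without a peak were MRPL15, MRPL17, MRPL22, MRPL23, MRPL35, MRPL44, MRPL45, MRPL46, MRPL49, MRPS11 and MRPS14, so 9 belonged to the large subunit. They stood well apart from the limit of 1 kb. Just inside it were MRPS2, with a peak interval 520 bp from its end, and MRPL24, with one at 935 bp, and the closest outside was MRPL45, at 3454 bp. The nearest peaks were 3.45 kb from MRPL45 (fold 21.0), 3.63 kb from MRPL35 (10.9), 4.24 kb from MRPL49 (20), 4.56 kb from MRPL15 (16.6) and 5.30 kb from MRPL44 (17.8). They were 12.5 kb from MRPS14 (7.73), 13.3 kb from MRPL17 (56.2), 15.5 kb from MRPL23 (6.13) and 21.2 kb from MRPL22 (4.59). Of these, the nearest peak of MRPL23 was inside the gene, which holds 4 summits.

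MRPL46 and MRPS11 are neighbours that start head to head with 320 bp between them, and neither had a peak. The nearest was 44.8 kb from MRPL46 and 31.4 kb from MRPS11, with a fold of 7.66, although the bases upstream of MRPL46 shown above hold a TTCCGG. MRPL49 likewise starts 49 bp from FAU, which encodes a ubiquitin-like protein fused to a cytosolic ribosomal protein, and no peak lay at their common promoter. MRPL44, a protein related to ribonuclease III, was a case apart. Its outer 5′ end had no peak, but its annotated start lies 6609 bp inside that end and carried a peak of fold 41.3 with 152 fragments (129 to 178), at chr2:223956802-223958037, whose summit was 22 bp upstream of the start, downstream of the pair of TTCCGG matches shown above. By fold this peak would stand among the 5 highest members. The absence of a listed peak says only that none passed the authors' threshold, not that ETV4 was absent.

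Strand and starts were available for 69 of the 77 genes. A peak lay within 1 kb of the outer 5′ end in 61 of the 69 (88.4%) against 61.3% of 15843 protein-coding genes with a strand, and within 1 kb of the 3′ end in 10 (14.5%) against 9.56%. By outer ends, MRPL4, MRPL36 and MRPL52 were the members whose highest peak reached the 3′ end only. At MRPL36, however, the summit of that peak lay 387 bp from the annotated start. With all annotated starts in place of outer ends, 62 of 69 (89.9%) had a peak against 64.4%, MRPL44 being the gene gained. Summits sat close to starts. In the 61 genes, the summit of the highest peak was within 100 bp of the nearest annotated start in 24 (39.3%), against 27.7% of all protein-coding genes with a peak, between 100 and 500 bp away in 27 and farther in 10. The median distance was 140 bp against 235 bp. Summits lay on both sides, 28 upstream and 33 downstream. MRPL24 had its summit 4 bp from its annotated start, 1624 bp inside its outer end, and MRPL20 5 bp inside its start. At the other extreme were MRPL4, with its summit 8037 bp from the start, and MRPL52.

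**Figure D3:**
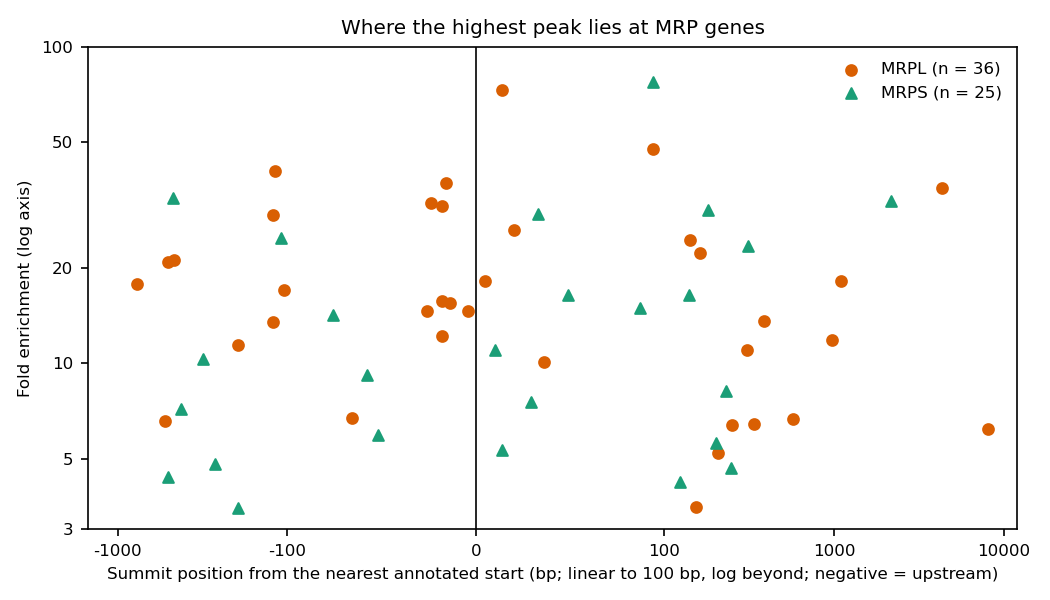
Distance in bp from the nearest annotated start to the summit of the highest peak (horizontal, linear to 100 bp and log beyond, upstream negative) against the fold enrichment of that peak (log axis) for 36 MRPL and 25 MRPS genes. Points gather around the start, 24 of 61 within 100 bp, both high and low folds occur there, and the points far to the right are MRPL4, MRPL52 and MRPS34.

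Many of these promoters are shared. Of the 69 genes, 23 (33.3%) had the start of another protein-coding gene within 1 kb on the opposite strand (head to head, overlapping starts included), against 13.6% of all protein-coding genes. At 36 of the 66 members with a peak (54.5%), the highest peak also reached an end of another protein-coding gene, against 29.8%. Counting only peaks that reach no other protein-coding end left 32 of 77 members with a peak (41.6%), against 45.2% of all protein-coding genes. The median folds were then 11.2 and 16.7. A gene whose peaks all reached another gene stayed in these totals as one without a peak. Such sharing was more frequent at MRP genes, so these shares also depend on how close the neighbours lie. Signal at a shared peak cannot be assigned to 1 of the genes. The median fold was 15.4 where another gene was reached and 11.8 where none was. Head-to-head members and the others had close values, with a peak at 20 of 23 head-to-head genes (87.0%, median fold 13.1) and at 41 of 46 others (89.1%, median 14.6), whereas over all protein-coding genes the shares were 87.6% and 60.3%. In 9 of the 61 members (14.8%) the summit was nearer to the start of another gene than to the member's own, close to the 15.6% of all protein-coding genes. These were MRPL9, MRPL14, MRPL18, MRPL40, MRPL50, MRPL52, MRPS7, MRPS18C and MRPS34. At MRPL40, for example, the summit was 776 bp from its own start and 36 bp from that of HIRA, a histone chaperone gene, and at MRPL52 the nearest start, 2366 bp away, was that of MMP14.

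ETS sites were more frequent in MRP promoters than in promoters at large. In windows from 250 bases before to 50 bases after the outermost start, CCGGAA or its reverse complement was present in 40 of 69 MRP genes (58.0%) and in 22.7% of the 15843 protein-coding genes. The longer CCGGAAG was present in 29 (42.0%) against 14.2% and CCGGAAGT in 11 (15.9%) against 6.16%, each of these strings being contained in the next. The bare GGAA core separates nothing at this length, with 98.6% against 95.2%, and the exception among the members was MRPS6, which nevertheless had a fold of 23.5. Median GC content of the windows was 60.3% in MRP genes and 62.7% over all. Other promoter strings were counted in the same way. AAGATGGC, a YY1 sequence, was found in 20 (29.0%) against 3.86%, TGCGCA, the core of NRF1 sites, in 14 (20.3%) against 10.8%, and TATAAA in 2 (2.90%) against 9.75%. A match of letters is a description of the window and not evidence of a bound site.

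Fold enrichment differed with the length of the site. All 29 members with CCGGAAG had a peak, with a range of 5.34 to 77.7 and a median of 24.5. The 11 with CCGGAA but no longer match had a peak in 8 cases, of a median fold of 12.8 and up to 21.2 at outer ends, and the 29 without either had one in 24 cases (82.8%), with a median of 9.22, up to the 40.5 of MRPL18. A fold over 10 was reached by 24 of 29 (82.8%), 5 of 11 (45.5%) and 12 of 29 (41.4%) in these classes, against 69.8%, 59.3% and 41.1% of all protein-coding genes of the same classes. Over all protein-coding genes the classes were closer in fold, with medians of 20.6, 18.8 and 16.8, while the shares with a peak were 87.3%, 78.7% and 58.1%. In the large subunit the medians were 24.5, 14.6 and 8.84. In the small subunit they were 20, 4.82 and 9.22, so there the 3 genes with only the 6-letter match lay below those without one. The comparison with all genes depends on which peak is taken. With the highest peak at either end, the MRP median of the 7-letter class lay above that of all genes and the others below. With the peak at an annotated start, the MRP medians were 18.2, 13.5 and 9.22 against 20.1, 18.8 and 17.1 over all protein-coding genes, so that all 3 lay below. The 6-letter class then had a peak in 9 of 11 cases, with the 41.3 of MRPL44 as its highest. Median GC content was 59.3% with the 7-letter site and 61.3% without a site, and median control levels were 2.36 and 2.68. The part of either in the difference was not tested.

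**Figure D4:**
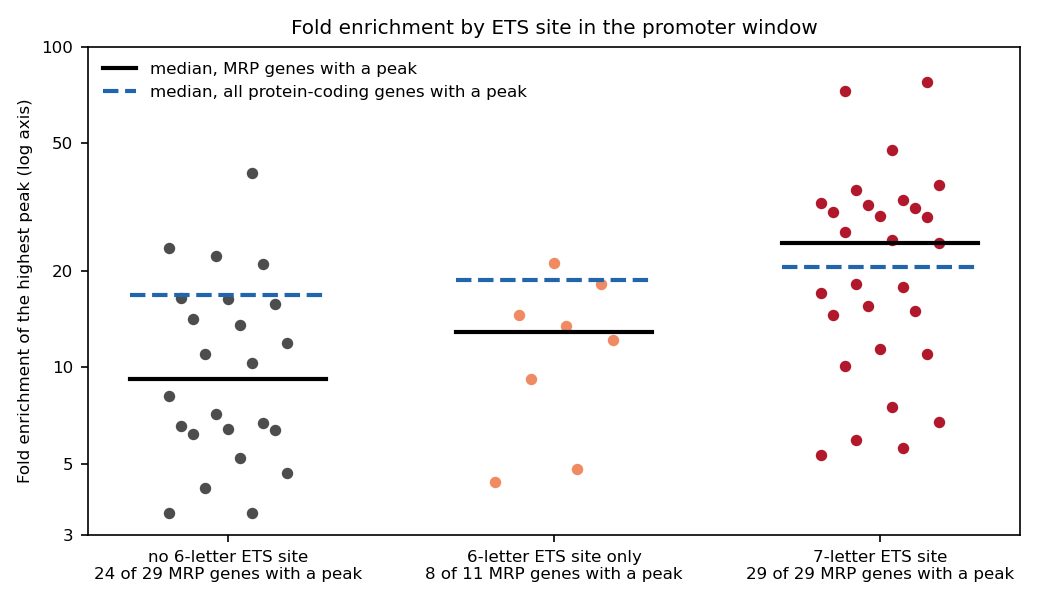
Fold enrichment of the highest peak (log axis) for MRP genes with no CCGGAA, with CCGGAA only and with CCGGAAG in the promoter window, 1 point a gene, with the MRP median (black line) and the median of all protein-coding genes of that class (dashed blue line). The MRP median goes from 9.22 to 12.8 to 24.5, with the 7-letter median above the dashed line, which it is not when peaks at annotated starts are taken (18.2 against 20.1), and the points of the classes overlap.

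Where the summit fell within the promoter window, which was so in 27 members, 22 (81.5%) had a CCGGAA in it, against 50.4% of 2771 protein-coding genes. The median distance from summit to the nearest match was 25 bp, against 31 bp, and it was at most 25 bp in 11 of 22 (50%) and at most 50 bp in 15 of 22 (68.2%), against 43.2% and 68.2%. The closest were MRPL47, with 2 bp between the summit and the CCGGAA shown above, MRPL3 with 5 bp, MRPL51 with 7 bp, MRPL38 with 8 bp and MRPL58 with 9 bp. The window of MRPL51 holds 3 matches, that of MRPS34 holds 3 and that of MRPS22 holds 4. A close match did not go with a high fold in each case, since MRPL47 had a fold of 14.6 and MRPL38 one of 11.4.

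A list of 48 other genes of mitochondrial translation was described by the same rule. A peak lay at 41 (85.4%), close to the 85.7% of the MRP genes, with a median fold of 20.3, above the 14.4 of the MRP genes and near the 17.6 of all protein-coding genes with a peak. The highest were MRM1, a methyltransferase of the mitochondrial large ribosomal RNA, with a fold of 95.9 and 218 fragments (190.0 to 249), MTIF2, the initiation factor, with 67.4 and 153 fragments (129.7 to 179), and AURKAIP1, a small-subunit protein with another kind of symbol, with 66.4 and 166 fragments (142 to 193). The summit lay 1158 bp from the nearest end of MRM1, 114 bp from that of MTIF2 and 291 bp from that of AURKAIP1. No peak was found at PTCD3 and GADD45GIP1, which are also mitoribosomal proteins, at the methionyl-tRNA formyltransferase MTFMT, or at ERAL1, FASTKD2, GTPBP6 and MPV17L2, which act in ribosome assembly or RNA handling. Assembly and rRNA modification genes had a median of 22.3 (23 of 27 with a peak), translation factors 8.77 (14 of 15) and the other mitoribosomal proteins 35.4 (4 of 6). That last group was set to count OXA1L, which had a fold of 6.81.

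Compared with the families most like them, MRP genes stood between cytosolic ribosomal protein genes and respiratory chain subunit genes in the share with a peak. It was 83 of 90 (92.2%) for the cytosolic ribosomal proteins, 85.7% for the MRP genes and 44 of 64 (68.8%) for the nuclear-encoded respiratory chain subunits, whose partners in the complexes are made on mitochondrial ribosomes. Over all protein-coding genes the share was 62.1%. With only peaks that reach no other protein-coding end, the family shares were 62.2%, 41.6% and 32.8%, against 45.2% of all protein-coding genes. Genes with shared peaks only count here as without a peak. Median folds of the highest peaks were 13.6, 14.4 and 9.28, against 17.6 over all protein-coding genes with a peak. A fold over 20 was reached by 31.1%, 28.6% and 9.38%, against 27.6%. The relation of fold to the 7-letter site was not alike in the families. Among cytosolic ribosomal protein genes the median was 15.9 with the site and 15.8 without CCGGAA, and among respiratory chain genes 13.3 and 8.72, beside 24.5 and 9.22 in the MRP genes. With peaks at annotated starts the MRP medians were 18.2 and 9.22, as MRPL52 had 3.37 at its start and 35.8 at its 3′ end. The other families were not described by that rule. As for the subunits, these are descriptions of 1 library and the differences were not tested.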

How the data were processed

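The ChIP-seq of A549-shETV4 cells given flag-ETV4 comprised 1 anti-Flag immunoprecipitate and 1 Input. The submitters' processing notes name Bowtie2 2.4.1, SAMtools, MACS2 2.2.7.1 and deepTools 3.5.0 and the build hg38. Parameters and the handling of duplicates were not given in the sources used here. For the Flag antibody, the labels name Sigma and the methods of the paper CST, and this remains unresolved. The deposited list of peaks gives each peak's fold enrichment over Input (a ratio), its −log10 p-value, its −log10 q-value and a score for display derived from q that was not used. The lowest −log10 q was 1.30. Library depth was not given. Pileup and control level at the summit were solved from the deposited fold, taken as (pileup + 1)/(control + 1), and the −log10 p of a Poisson tail. Pileups came out whole to within 0.00914, and the computation was tested on simulated data.

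Gene ends came from RefSeq (GRCh38.p14), and strand, starts and promoter sequence from RefSeq promoter windows, matched by gene ID for 69 of 77 members. MRPL2, MRPL10, MRPL13, MRPL15, MRPL21, MRPL23, MRPL35 and MRPS28 had no window. Exons and introns were not used here. Letters were searched on both strands. Full values are given for the 10 highest and 6 lowest members, all with more than 1 peak and all without. From the list of mitochondrial translation genes, the 3 highest and those without a peak are named. Other members named in a comparison were picked with their values in view. The members and lists were chosen with earlier results of these data known. Alternatives covered the window, fold and q thresholds, the summit or midpoint in place of the interval, 5′ ends, peaks reaching no other gene and the length of the ETS string. Systematic names, annotated starts and all promoter windows of a gene were added after seeing the data. Tools were pandas 2.3.3 and numpy 2.4.6 under Python 3.11.15, with scipy 1.17.1 for intervals and matplotlib 3.10.9 for plots.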

Additional observations from a re-analysis of the deposited data

How the results depend on the processing

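Of 49 alternatives, 42 left the value within its limit of change (1.5 times for a count) and 7 moved it. This limit is wide and concerns the members' value alone, not its contrast with all protein-coding genes. A fold over 10 left 44 of 77 members (57.1%, against 45.2% of all protein-coding genes) and still counted as within the limit. Windows of 500 bp to 3 kb gave 64 to 66 members with a peak. Restricting to peaks that reach no other protein-coding end gave 32 of 77 members (41.6%), against 45.2% of all protein-coding genes. It gave 17 of 49 in the large subunit (34.7%) and 15 of 28 in the small (53.6%). The small-subunit share was thus somewhat above that of all protein-coding genes, and those of the large subunit and of all members were below it. With subunits taken from the systematic names, 13 of 26 small-subunit genes had such a peak, a share nearer to that of all protein-coding genes. These differences were not tested and rest on few genes, so no subunit trait is read from them. Genes with shared peaks only count here as without a peak, and highest peaks were shared more often at MRP genes (54.5% against 29.8%). Among genes that are not head to head, the shares with any peak were 89.1% and 60.3%. Medians under the restriction were 11.2, 13.6 and 7.54. A fold over 10 left 13 of 28 small-subunit genes (46.4%), against 45.2% of all protein-coding genes. The share of promoters with an ETS string was 98.6% for GGAA, 58.0% for CCGGAA, 42.0% for CCGGAAG and 15.9% for CCGGAAGT. Each of these strings contains the one before it, so the share cannot rise along this order. Depth limits the low peaks most, since 8 members had fewer than 20 fragments at the summit. No paired analysis was possible because there was 1 immunoprecipitate and no result comes from a test.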
